A study of Homo sapiens with 12 samples.

Results

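Guide sgMETTL16-2, which targets the RNA methyltransferase METTL16, was compared with the control guide sgNS in NOMO-1 cells. Every window listed for this guide in the authors' deposited tables was included: 75788 windows in replicate 1 and 70002 in replicate 2, so 145790 of the 296568 windows in the 4 tables of the series. NOMO-1 is an established human acute myeloid leukaemia (AML) line with monocytic features. The cells received 1 guide by lentivirus, were selected with puromycin at 2 ug/ml, and are labelled METTL16 knockout for sgMETTL16-2 and control for sgNS. The labels do not say that a single clone was grown, nor that replicate numbers mark separate cultures. Polyadenylated RNA was sequenced before immunoprecipitation (input) and after it with an antibody against N6-methyladenosine (m6A, the IP). Of the 12 libraries of the series, the 8 of these 2 guides are described: 2 input and 2 IP libraries for each. Which sgNS libraries entered each table is not stated, so the tables may share controls. The number in a table's name is taken as its replicate, and the tables are called replicates 1 and 2 below.

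m6A is the most common internal mark of messenger RNA. Most of it is written by the METTL3-METTL14 complex, bound by YTH proteins and removed by the demethylases ALKBH5 and FTO. METTL16 is a separate writer that recognises a structured sequence. It methylates U6 small nuclear RNA and hairpins in the 3′ UTR of MAT2A, the message for the enzyme that makes S-adenosylmethionine, and through these hairpins MAT2A splicing responds to the supply of that methyl donor.

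A window is a stretch of a gene's transcript, given as 1 or more blocks, in which IP and input reads were compared. A window was called when the false discovery rate (FDR) of its difference in the authors' deposited table was under 0.05. Enriched windows are those with a deposited FDR of IP over input under 0.05. Negative log2 fold changes are taken to mean less m6A relative to input with sgMETTL16-2, as software with these column names usually writes them. The authors' deposited tables do not state the sign, and with the opposite convention every direction would turn. The tables hold no value per library, so depth and the spread between replicates are unknown, and windows of 1 gene are not independent.

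Windows on marker genes show where RNA was listed. They were listed on 14 of 14 monocytic AML markers in replicate 1 and on 13 of 14 in replicate 2, with FLT3 missing from replicate 2. Of 6 lymphoid markers 3 had a window in each table, of 6 erythroid and platelet markers 1 (ITGA2B), and of 4 epithelial markers 0.

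Among windows called higher in both tables, some reached the first transcribed base of the RefSeq gene model. There were 9 of them, and their first 30 bases are shown because this end of a message can also carry a methylated cap-adjacent adenosine that m6A antibodies bind. The capital marks the first transcribed base.
ALKBH5: Gaggagcccgctaaggagcggcgctggcgg
CEBPA: Attcgcgacccggaggtgcgcgggcgcggg
HLA-C: Acattctccccagaggccgagatgcgggtc
HNRNPM: Acacaaagcccagacgcggagaaaatggcg
HNRNPUL2-BSCL2: Gttttgggctccgtgagccgaaagggggag
PCBP1: Agaccgccgaggctgccgccggagtcgcca
PCBP2: Cccagaccagcagaggcagcagccggagca
SNRNP70: Agtcgctatcggaggccgcgcgggtggctg
STK40: Acttccgttgtcaggtggcggcgccgcagc
They were read from RefSeq on GRCh38.p14. On the plus strand lie ALKBH5 at chr17:18183828-18183857, HNRNPM at chr19:8444975-8445004, PCBP1 at chr2:70087477-70087506, PCBP2 at chr12:53452102-53452131 and SNRNP70 at chr19:49085451-49085480. On the minus strand lie CEBPA at chr19:33302505-33302534, HLA-C at chr6:31272063-31272092, HNRNPUL2-BSCL2 at chr11:62727355-62727384 and STK40 at chr1:36385895-36385924. Of the 9, 6 began with A, beside 44.3% of 27305 RefSeq promoters. The antibody signal of the cap and of internal m6A cannot be told apart in these windows, and 9 windows are too few to set against that share.

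METTL16 had no called window. The authors' deposited tables list 6 and 5 windows on it, 1 enriched in each, with log2 fold changes from -1.91 to 0.83 in replicate 1 and from -2.5 to 0.47 in replicate 2. The long enriched window was at -0.18 and 0.16 in the authors' deposited tables. These values are methylation relative to input, so they do not check the knockout. In the authors' deposited tables MAT2A had 2 windows each, and 1 was called, in replicate 1: chr2:85544625-85545191, at -0.73 (FDR = 7.76e-05). In replicate 2 the overlapping window chr2:85544923-85545131 was at -0.61 (FDR = 0.123) in the authors' deposited table and was not called. GGCX lies on the opposite strand over the same stretch and was called lower in both of the authors' deposited tables, at -0.64 and -0.68. Whether reads were counted by strand is not given in the sources used here, so the reads of MAT2A and GGCX cannot be told apart.

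Calls were few, and the tables differed in how many went down. In the authors' deposited table of replicate 1, 731 windows on 630 genes were called lower (0.965% of its windows) and 663 on 553 genes higher (0.875%). In replicate 2 the authors' deposited table had 104 lower on 102 genes (0.149%) and 410 higher on 377 genes (0.586%). The typical called change was larger among lower windows, with medians of -1.03 and -0.95, than among higher ones, with medians of 0.54 and 0.39, in the authors' deposited tables of replicates 1 and 2. However, 46.5% and 55.8% of the lower calls were in enriched windows, beside 86.4% and 95.1% of the higher calls. Lower calls were also in shorter windows, with median lengths of 301 and 194 bases beside 569 and 599. The median log2 fold change over all windows was 0 in each table. Over the 7762 and 8586 enriched windows, however, the median in the authors' deposited tables was 0.13 and 0.14, not 0.

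Counts of higher calls fell when that offset was removed. As an alternative chosen after seeing the data, the median of the enriched windows was subtracted from each table and p-values were recomputed. After the shift, 839 lower and 153 higher windows were called in replicate 1, and 127 lower and 61 higher in replicate 2. The lower share of calls went from 52.4% to 84.6% in replicate 1 and from 20.2% to 67.6% in replicate 2. Every log2 fold change is lowered by the shift, so lower calls are favoured by construction. The recomputed p is two-sided. A two-sided p with no shift gave 505 lower and 433 higher in replicate 1, and 74 and 300 in replicate 2. Calls after the shift are given with the gene lists described below whose direction they turn.

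Of all windows, 21192 could be matched between the tables (28.0% of replicate 1 and 30.3% of replicate 2). Among them 13 were called lower in both (0.0613%) and 112, on 103 genes, higher in both (0.529%), and 3 were called in opposite directions. The 13 are 1.78% of the lower calls of replicate 1 and 12.5% of those of replicate 2. The 112 are 16.9% and 27.3% of the higher calls. Far fewer lower calls had a partner window at all: 98 of 731 and 45 of 104, beside 501 of 663 and 331 of 410 of the higher calls. After the shift all 13 lower windows were called in both tables, among 21 such windows, and 12 of the 112 higher ones. The shift lowers every value, so it favours lower calls by construction and this contrast does not rank the 2 groups. A two-sided p with no shift kept 10 of the 13 and 77 of the 112. The lower windows it lost were those of GGCX, PJA2 and UPF3B. The overlap was not tested, since the tables may share sgNS libraries.

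**Figure D1:**
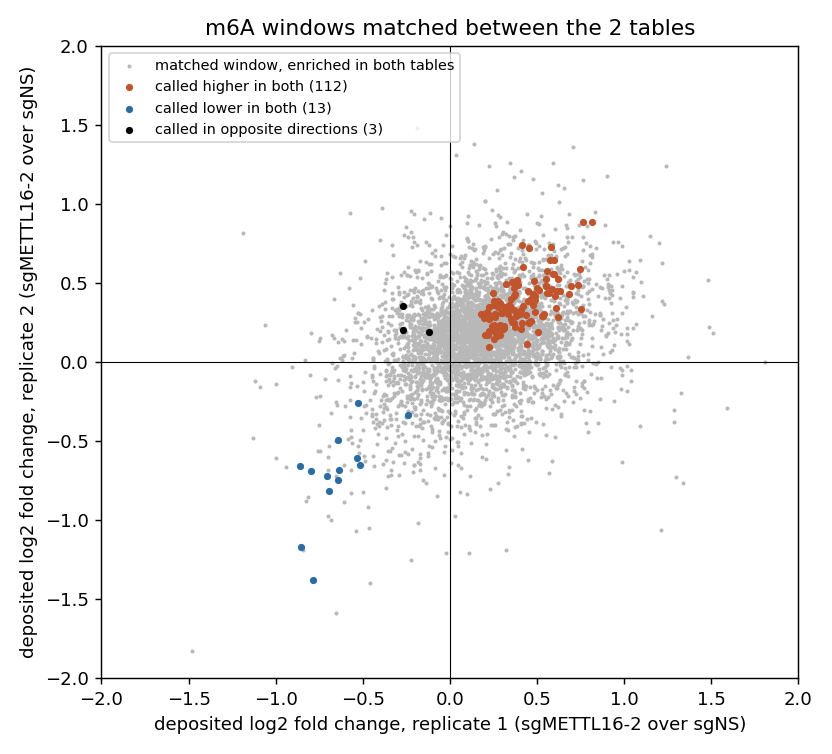
Deposited log2 fold change of windows matched between replicate 1 (x axis) and replicate 2 (y axis). Grey points are the 4228 matched windows enriched in both tables (3 lie beyond the axes), orange points the 112 windows called higher in both, blue points the 13 called lower in both, and black points the 3 called in opposite directions. Most orange points lie between 0.2 and 0.6 inside the grey cloud, and the blue points lie at its lower left edge.

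Of the windows called lower in both tables, that of ZNF121, a zinc finger gene, had the lowest mean, with log2 fold changes of -0.79 and -1.38 in the authors' deposited tables of replicates 1 and 2 (chr19:9566057-9568120 in replicate 1). WHSC1L1 (NSD3), a histone H3 lysine methyltransferase, was at -0.85 and -1.17 in the same deposited tables of the authors. SETDB2, another SET domain protein, was at -0.71 and -0.72 in the authors' deposited tables (chr13:49483476-49488556). These were 2 of the 27 histone methyltransferase genes with a window, a list that had as many windows called higher as lower in replicate 1.

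Among genes of message export, decay and splicing, UPF3B, which links exon junctions to nonsense-mediated decay, was at -0.86 and -0.66 in the authors' deposited tables (chrX:119838476-119841770). THOC2, the scaffold of the THO export complex, was at -0.64 and -0.75 (chrX:123621235-123622855 in the authors' deposited table of replicate 1). SRSF11, a splicing factor, had the smallest change of the 13, at -0.24 and -0.33 in the authors' deposited tables. Outside these windows THOC2 was not uniform: a second window was at -0.39 (FDR = 0.0178) in replicate 1 and 0.13 (not called) in replicate 2 of the authors' deposited tables.

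EIF4A1, the RNA helicase of cap-dependent initiation, was at -0.53 and -0.61 in the authors' deposited tables (chr17:7577617-7577885). The read-through gene SENP3-EIF4A1 repeated it, with values of -0.52 and -0.65 in the authors' deposited tables over an overlapping window. PABPC1, the poly(A)-binding protein, was at -0.64 and -0.49 in the authors' deposited tables, in a window of 90 bases that was enriched in replicate 1 alone. CEBPZ, a nucleolar transcription factor, was at -0.69 and -0.82 and PJA2, a ubiquitin ligase, at -0.80 and -0.69 in the authors' deposited tables. B2M, the light chain of MHC class I, was at -0.53 (FDR = 6.31e-73) and -0.26 (FDR = 0.000224) in the authors' deposited tables. Of the 13 windows, 11 were enriched in both tables, all but those of GGCX and PABPC1.

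The higher windows had smaller changes and were longer. Their log2 fold changes ran from 0.18 to 0.82 (median 0.38) in the authors' deposited table of replicate 1 and from 0.10 to 0.89 (median 0.34) in replicate 2. Their median length was 959 and 1003 bases, beside 449 and 241 for the 13 lower ones, and 109 of 112 were enriched in both tables. The 10 with the highest mean were CBX8, STK40, ZBTB4, JUN, DAPK3, ZBTB7B, SLC7A1, GATAD2A, TNRC18 and RPRD2.

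The 12 higher windows that stayed called in both tables after the shift were on CEBPA, LYL1, TGFB1, VEGFA, CITED2, PCBP1, HNRNPU, HNRNPUL2 (with its read-through copy HNRNPUL2-BSCL2), SCAF1, P4HB and ADGRA2. CEBPA, the C/EBP factor that drives granulocyte and monocyte fate, was at 0.49 (FDR = 3.98e-31) and 0.32 (FDR = 1.58e-12) in the authors' deposited tables. LYL1, a basic helix-loop-helix factor of blood progenitors, was at 0.57 and 0.44 in the authors' deposited tables. TGFB1, a cytokine, was at 0.59 and 0.46 and VEGFA, the angiogenic growth factor, at 0.37 and 0.43 in the authors' deposited tables. CITED2, which binds the acetyltransferases EP300 and CREBBP, was at 0.35 and 0.34 in the authors' deposited tables. Among RNA-binding proteins, PCBP1, HNRNPU and HNRNPUL2 were at 0.39 and 0.52, at 0.31 and 0.35, and at 0.55 and 0.48 in the authors' deposited tables.

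**Figure D2:**
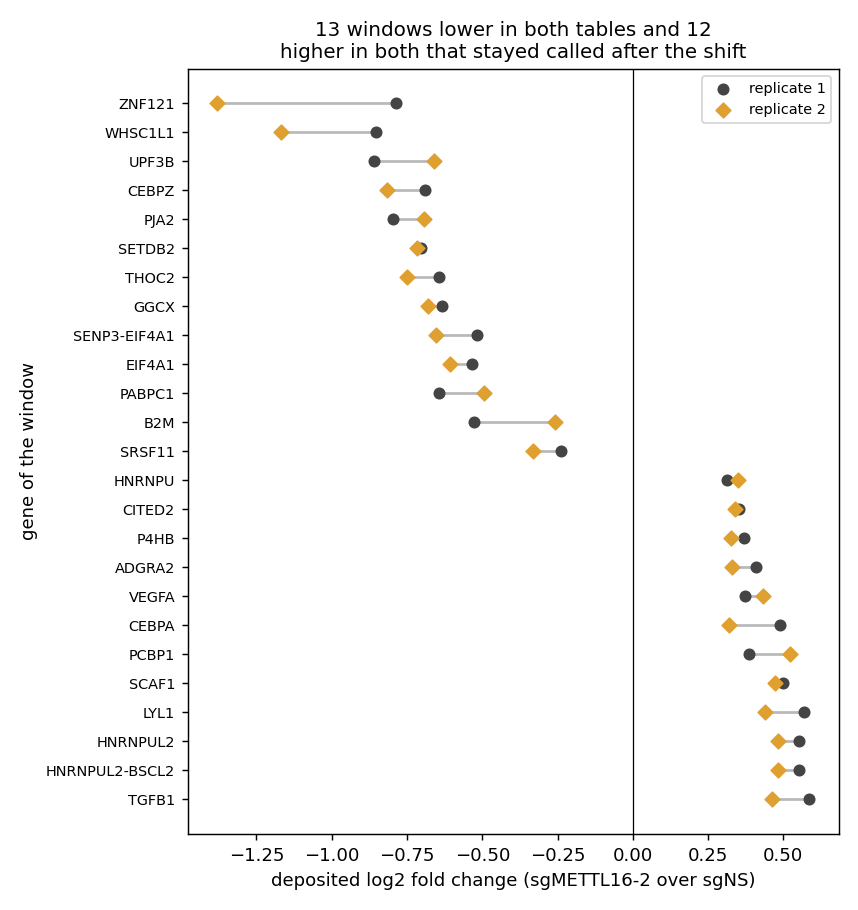
Deposited log2 fold change (x axis) in replicate 1 (dark circles) and replicate 2 (orange diamonds) for the 13 windows called lower in both tables and for the 12 windows called higher in both before and after the shift by the median of enriched windows. The lower windows reach -1.38 for ZNF121 in replicate 2, and every higher value drawn lies between 0.3 and 0.6.

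The direction of the RNA-binding protein lists turned with the shift in replicate 1 (hnRNP genes) or replicate 2 (splicing factors). For comparison, all windows had 0.875% higher and 0.965% lower calls in replicate 1, and 0.586% and 0.149% in replicate 2. The hnRNP genes, whose proteins coat nascent transcripts, had 6 higher (5.22%) and 2 lower (1.74%) of 115 windows in replicate 1. In replicate 2 they had 5 higher (5.95%) and 1 lower (1.19%) of 84. With the shift replicate 1 turned to 3 higher and 4 lower, and replicate 2 had 2 higher and 1 lower. PCBP2, which binds poly(C), was at 0.47 and 0.43 and HNRNPM at 0.35 and 0.40 in the authors' deposited tables. SR and SR-like splicing factors had 9 lower (6.67%) and 4 higher (2.96%) of 135 windows in replicate 1, then 1 lower (0.98%) and 2 higher (1.96%) of 102. With the shift these were 11 lower and 0 higher windows, then 1 lower and 0 higher, so replicate 2 turned. SRSF4 was called higher in both of the authors' deposited tables at 0.21 and 0.32, against SRSF11 in the lower group. SNRNP70, the U1 small nuclear ribonucleoprotein, was at 0.37 and 0.47 in the window whose first bases are shown above and at 0.37 and 0.25 in another in the authors' deposited tables.

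Further windows among the 40 with the highest means lay on genes of varied roles. ZBTB4, which binds methylated DNA, was at 0.75 and 0.59 and ZBTB7B, a factor of T-cell fate, at 0.74 and 0.49 in the authors' deposited tables. STK40, a pseudokinase, was at 0.77 and 0.89 in the authors' deposited tables, in a window that was enriched in neither. DAPK3, a death-associated protein kinase, was at 0.60 and 0.65 and CDC42SE1, which binds the GTPase CDC42, at 0.41 and 0.74 in the authors' deposited tables. TBC1D10B, a Rab GTPase activator, was at 0.59 and 0.56 and DAG1, dystroglycan, at 0.51 and 0.46 in the authors' deposited tables. SOX12, an SRY-related factor, was at 0.56 and 0.44 and CLDN5, a tight junction claudin, at 0.49 and 0.39 in the authors' deposited tables. ZC3H4, which restrains noncoding transcription, was at 0.62 and 0.28 and REXO1, named as an RNA exonuclease, at 0.69 and 0.43 in the authors' deposited tables. KIAA1211L, AFF2, MPST, OGFR and PLEKHM2 had values from 0.36 to 0.61 in replicate 1 and from 0.40 to 0.51 in replicate 2 of the authors' deposited tables.

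Chromatin repressors stood on the higher side. The list of NuRD, histone deacetylase and co-repressor genes had 10 higher and 0 lower of 268 windows in replicate 1 (3.73%), and 8 higher and 0 lower of 281 in replicate 2 (2.85%) of the authors' deposited tables. Of its 38 genes, 6 were called higher in both tables. The shares of higher calls over all windows were 0.875% in replicate 1 and 0.586% in replicate 2. GATAD2A, MBD3 and MTA1 are NuRD subunits, and in the authors' deposited tables they were at 0.70 and 0.48, at 0.42 and 0.35, and at 0.61 and 0.42. The co-repressors IRF2BP2 and TLE3 were at 0.47 and 0.26 and at 0.36 and 0.25 in the authors' deposited tables. Shifted, the list had 5 higher and 2 lower windows in replicate 1, and 1 higher and 0 lower in replicate 2. The median of its enriched windows was 0.25 and 0.19, beside 0.13 and 0.14 over all enriched windows of the authors' deposited tables.

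Other chromatin lists were mixed. Over all windows 0.875% were called higher and 0.965% lower in replicate 1, and 0.586% and 0.149% in replicate 2. Bromodomain and acetyltransferase genes had 7 higher (3.76%) and 0 lower of 186 windows in replicate 1, and 2 higher (0.93%) and 1 lower (0.465%) of 215 in replicate 2. After the shift they had 3 higher and 1 lower, then 0 higher and 1 lower. EP300, a histone acetyltransferase, was at 0.56 and 0.57 in the authors' deposited tables. Polycomb genes had 6 higher (2.61%) and 4 lower (1.74%) of 230 windows in replicate 1. In replicate 2 they had 2 higher (0.976%) and 0 lower of 205. After the shift the Polycomb genes had 0 higher and 4 lower, then 1 higher and 0 lower. Among them, CBX8, a subunit that reads methylated histone H3, was at 0.82 and 0.89 in the authors' deposited tables. BMI1, of the same complexes, was called lower in replicate 1 alone, where a window was at -1.40 (FDR = 4.9e-07) in the authors' deposited table. The histone methyltransferases split as well: KMT2B was at 0.42 and 0.60 in the authors' deposited tables, against the lower WHSC1L1 and SETDB2. That list had 5 lower and 5 higher (1.79% each) of 280 windows in replicate 1, and 2 lower (0.714%) and 3 higher (1.07%) of 280 in replicate 2. After the shift it had 5 lower and 0 higher, then 2 lower and 0 higher, and the KMT2B window was no longer called in both. ARID1A, a SWI/SNF subunit, was at 0.75 and 0.34 in the authors' deposited tables, while ATRX, another remodeller, had a window at -4.0 (FDR = 0.00324) in replicate 1 alone. That ATRX window was not enriched. The list of SWI/SNF and other remodellers had 4 lower (1.35%) and 5 higher (1.69%) of 296 windows in replicate 1. In replicate 2 it had 0 lower and 2 higher (0.749%) of 267. After the shift it had 3 lower and 1 higher, then 0 of either.

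Immediate early and myeloid transcription factor genes were called higher mainly in replicate 1 before the shift. The immediate early list had 9 higher (5.33%) and 1 lower (0.592%) of 169 windows in replicate 1, beside 0.875% and 0.965% of all windows. In replicate 2 it had 3 higher (1.89%) and 0 lower of 159, beside 0.586% and 0.149%. After the shift it had 3 higher and 1 lower, then 0 of either. JUN, an AP-1 subunit, was at 0.58 and 0.73 and IER2 at 0.61 and 0.35 in the authors' deposited tables. FOSL2 (0.93 and 0.45), JUND (0.50 and 0.32) and MYC (0.56, no matched window in replicate 2) were called in replicate 1 of the authors' deposited tables and not in replicate 2. In the list of C/EBP and other myeloid factors, 7 of 30 genes were called higher in replicate 1 and 1, CEBPA, in replicate 2. Its 7 higher (4.61%) and 3 lower (1.97%) of 152 windows in replicate 1 became 2 higher and 3 lower after the shift. Replicate 2 had 1 of each (0.667%) in 150 windows, with and without the shift. Its lower call was on CEBPZ, described above as a nucleolar factor, which this list includes and which was called lower in both tables. CEBPB, CEBPE, SPI1 (PU.1) and GFI1 were at 0.50, 0.45, 0.36 and 0.55 in the authors' deposited table of replicate 1. In replicate 2 the authors' deposited values for these were 0.17, 0.06, 0.12 and 0.16, none called. Whether the tables differ for these genes was not tested.

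Cytokine receptor and STAT signalling genes had 5 higher (1.96%) and 2 lower (0.784%) of 255 windows in replicate 1. In replicate 2 they had 4 higher (1.66%) and 1 lower (0.415%) of 241. Over all windows 0.875% were called higher and 0.965% lower in replicate 1, and 0.586% and 0.149% in replicate 2. With the shift the list turned to 1 higher and 2 lower, then 0 higher and 2 lower. IL4R and IL17RA, cytokine receptors, were at 0.62 and 0.53 and at 0.55 and 0.52 in the authors' deposited tables. CSF3R, the receptor of granulocyte colony-stimulating factor, was called in replicate 2 at 0.94 and was at 0.69 (not called) in replicate 1 of the authors' deposited tables. Amino acid transporter genes had 5 higher (3.38%) and 1 lower of 148 windows in replicate 1, then 3 higher (2.1%) and 0 lower of 143. Of these 22 genes, 3 were called higher in both. SLC7A1, a cationic amino acid carrier, was at 0.57 and 0.65 and SLC1A5, a glutamine carrier, at 0.44 and 0.30 in the authors' deposited tables. SLC38A10 was at 0.42 and 0.25 in the same deposited tables. After the shift the list had 4 higher and 1 lower, then 0 of either, so none of the 3 stayed called in both. SLC38A1 went the other way in replicate 1 of the authors' deposited tables, at -1.33 (FDR = 0.00339). The list's 1 lower call in replicate 1 was in a window that was not enriched. The 14 genes of branched-chain amino acid breakdown had 0 called of 119 windows in replicate 1 and 0 of 87 in replicate 2. Of these windows 8 and 4 were enriched. At the shares of all windows few calls would fall on so few windows, so 0 calls are not read as no change.

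The actin and myosin list had the highest share of higher calls in replicate 1 among the lists drawn in the plot of list shares. There, 19 of 166 windows (11.4%) on 10 genes were higher and 2 (1.2%) lower, beside 0.875% and 0.965% of all windows. For replicate 2 the authors' deposited table gave 12 higher (5.88%) and 1 lower (0.49%) of 204 windows, beside 0.586% and 0.149%. After the shift the list turned to 4 higher and 4 lower in replicate 1 and to 1 higher and 7 lower in replicate 2. MYH9, the non-muscle myosin heavy chain, was called in 5 of 7 windows in replicate 1, and its 2 windows called in both tables were at 0.51 and 0.19 and at 0.29 and 0.24 in the authors' deposited tables. MYO9B, an unconventional myosin, was at 0.48 and 0.51 and at 0.54 and 0.30 in its 2 windows called in both of the authors' deposited tables.

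Endoplasmic reticulum folding genes had 8 higher (5.84%) and 3 lower (2.19%) of 137 windows in replicate 1, beside 0.875% and 0.965% of all windows. In replicate 2 of the authors' deposited tables they had 8 higher (5.59%) and 0 lower of 143, beside 0.586% and 0.149%. With the shift, replicate 1 had 2 higher and 7 lower, and replicate 2 had 6 higher and 0 lower. P4HB, a protein disulphide isomerase, was at 0.37 and 0.33 in 1 window and at 0.22 and 0.17 in another in the authors' deposited tables. HSPA5 (BiP), the main chaperone of this compartment, was called in replicate 2 alone, at 1.36 in a window of 61 bases in the authors' deposited table. PDIA6 was called in opposite directions in windows that did not match, at -1.06 in replicate 1 and 0.85 in replicate 2 of the authors' deposited tables.

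For ribosomal protein genes the tables differed in direction, and that difference was not tested. For the large subunit, 19 of 129 windows (14.7%) were called lower and 2 (1.55%) higher in replicate 1. In replicate 2 of the authors' deposited tables, 5 of 108 (4.63%) were lower and 9 (8.33%) higher. For the small subunit the counts were 11 lower (17.7%) and 1 higher (1.61%) of 62, then 2 lower (3.92%) and 6 higher (11.8%) of 51. All windows together had 0.965% lower and 0.875% higher in replicate 1, and 0.149% and 0.586% in replicate 2. After the shift the large subunit had 26 lower and 1 higher in replicate 1, and 7 lower and 3 higher in replicate 2, so the direction of replicate 2 turned. The small subunit then had 15 lower and 1 higher, and 2 of each. No matched window of a ribosomal protein gene had the same call in both tables.

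All 3 matched windows that the tables called in opposite directions were on ribosomal protein genes. RPL27 was at -0.27 and 0.36, RPL38 at -0.27 and 0.20 and RPS16 at -0.12 and 0.19 in the authors' deposited tables of replicates 1 and 2. Changes in replicate 1 were small, such as RPS6 at -0.21 (FDR = 2e-18) and RPL5 at -0.49 (FDR = 1.78e-10) in the authors' deposited table. Replicate 2 held some of the largest enriched changes of either sign: RPS23 at -3.46, RPL15 at -2.81 (-0.15 and not called in replicate 1), RPL18 at 1.37 and RPL10A at 1.04 in the authors' deposited table. Ribosomal protein genes have many near-identical pseudogenes. How the authors placed reads that map to several copies is not given in the sources used here, and these values are uncertain for that reason.

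Other parts of the translation machinery had more lower than higher calls in replicate 1. All windows together had 0.965% lower and 0.875% higher in replicate 1, and 0.149% and 0.586% in replicate 2. Initiation factors had 20 lower (8.26%) and 6 higher (2.48%) of 242 windows in replicate 1, on 12 and 5 of 54 genes. In replicate 2 they had 1 lower (0.513%) and 5 higher (2.56%) of 195. After the shift these were 23 lower and 1 higher, then 2 lower and 1 higher, so the direction of replicate 2 turned. EIF3E, an eIF3 subunit, was lower in 3 of 3 windows (-0.53 to -1.17) and EIF5B, which joins the subunits, in 3 of 9 (-0.72 to -1.42) in the authors' deposited table of replicate 1. By contrast, 2 other eIF3 subunits were called higher in both of the authors' deposited tables, EIF3A at 0.20 and 0.28 and EIF3B at 0.34 and 0.34, as was the scaffold EIF4G1 at 0.45 and 0.25. EIF3A and EIF3B are also on the list of published METTL16 partners. EEF2, the translocase of elongation, was called higher in 6 of 6 windows in replicate 1 of the authors' deposited tables (0.15 to 0.34) and in 2 of 5 in replicate 2 (0.07 and 0.10), where both values lie under the median of enriched windows. Elongation genes had 8 lower (10.3%) and 6 higher (7.69%) of 78 windows in replicate 1. In replicate 2 they had 2 lower (2.9%) and 4 higher (5.8%) of 69. After the shift they had 9 lower and 4 higher, then 4 lower and 1 higher, so replicate 2 turned.

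Nuclear genes of mitochondrial proteins had more lower than higher calls in replicate 1. Mitochondrial ribosomal proteins had 9 lower (4.02%) and 1 higher of 224 windows, beside 0.965% and 0.875% of all windows, but only 1 of the 9 was enriched. Complex I genes had 3 lower (3.3%) and 0 higher of 91 windows in replicate 1, with 1 of the 3 enriched. In replicate 2 they had 1 of each (1.16%) in 86 windows, beside 0.149% lower and 0.586% higher of all windows. The other respiratory chain and ATP synthase genes had 7 lower (7.78%) and 0 higher of 90 in replicate 1, 6 of them enriched. In replicate 2 the ribosomal list had 0 lower and 3 higher of 180 and the other respiratory list 0 lower and 1 higher of 69, all of which were lost after the shift. The mitochondrially encoded genes had 0 calls in 9 and 3 windows. COX7C, a complex IV subunit, was at -0.99 (FDR = 2e-11) and UQCRB, of complex III, at -0.46 in the authors' deposited table of replicate 1. Neither had a matched window in replicate 2. Proteasome subunits had 1 of each (0.8%) in 125 windows of replicate 2. They had 6 lower (3.64%) and 1 higher (0.606%) of 165 windows in replicate 1, with PSMA4 at -1.02 in the authors' deposited table. Of those 6 lower windows, 3 were enriched. Ubiquitin-specific proteases had 9 lower (2.54%) and 2 higher (0.565%) of 354, then 0 of 287, and 5 of the 9 were enriched. USP1, which deubiquitinates FANCD2 and PCNA, was at -2.13 (FDR = 5.01e-22) in the authors' deposited table of replicate 1.

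Mitotic and chromosome structure genes had 18 lower (6.21%) and 4 higher (1.38%) of 290 windows in replicate 1, beside 0.965% and 0.875% of all windows. In replicate 2 they had 2 lower (0.93%) and 7 higher (3.26%) of 215, beside 0.149% and 0.586%. Of the 18 lower windows only 7 were enriched, as were 0 of the 2 of replicate 2. CENPF, a kinetochore protein, was lower in 4 of 21 windows (-0.92 to -1.88), and SMC4, of condensin, was at -1.28 in the authors' deposited table of replicate 1. TOP2A, topoisomerase II alpha, was at -0.73, -1.68 and -1.70 in 3 windows of the authors' deposited table of replicate 1. MKI67 and NUMA1 were called higher in both tables, at 0.26 and 0.19 and at 0.28 and 0.18 in the authors' deposited tables. With the shift, replicate 1 had 17 lower and 0 higher, and replicate 2 had 1 of each.

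Abundant nuclear RNAs and small nucleolar RNA hosts had lower calls and no higher ones. The longer list of intergenic and antisense RNAs had 8 lower (0.37%) and 4 higher (0.185%) of 2163 windows in replicate 1. In replicate 2 it had 1 lower of 2061. These shares lie under those of all windows, but only 75 and 81 of the list's windows were enriched. Of the 75 in replicate 1, 7 were lower and 4 higher, beside 4.38% and 7.38% of all enriched windows. In replicate 2 the lower window was not enriched. The nuclear RNA list had 9 lower of 174 windows in replicate 1 (5.17%) and 2 of 157 in replicate 2 (1.27%). MALAT1, whose triple helix binds METTL16, was lower in 4 of 10 windows of replicate 1 (-0.17 to -0.97) in the authors' deposited tables. It was lower in 1 window of replicate 2 as well, at -0.78 in the authors' deposited table, with no match in replicate 1. NEAT1, the scaffold of paraspeckles, was at -0.71 and -1.46 in 2 windows of replicate 1 and at -0.29 in 1 of replicate 2 in the authors' deposited tables. TUG1 had 3 windows from -1.31 to -1.59, called in replicate 1 of the authors' deposited tables alone. Small nucleolar RNA hosts had 6 lower (12.2%) of 49 windows in replicate 1 and 1 (2.78%) of 36 in replicate 2. Of all windows, 0.965% and 0.149% were called lower. SNHG1 was called in both tables in windows that did not match, at -0.77 and -1.14 in the authors' deposited tables.

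**Figure D3:**
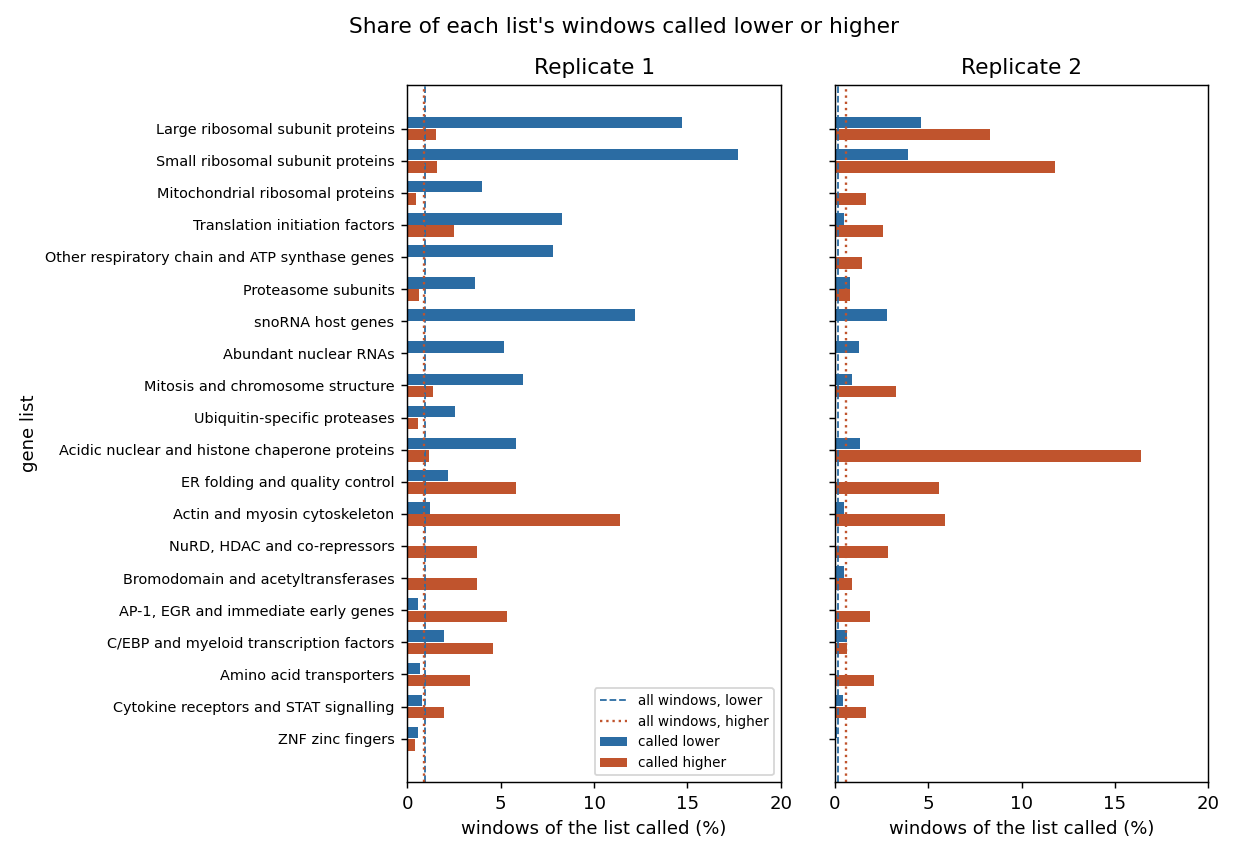
Percentage of the windows of 20 gene lists (y axis) called lower (blue) or higher (orange) in replicate 1 (left) and replicate 2 (right). The vertical lines mark the same percentages over all windows of the table: 0.965% lower and 0.875% higher in replicate 1, and 0.149% and 0.586% in replicate 2. Ribosomal protein lists are mainly blue in replicate 1 and mainly orange in replicate 2, and NuRD and co-repressor genes are orange in both.

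The acidic nuclear proteins and histone chaperones also changed side. In replicate 1 they had 5 lower (5.81%) and 1 higher (1.16%) of 86 windows, beside 0.965% and 0.875% of all windows. In replicate 2 they had 1 lower (1.37%) and 12 higher (16.4%) of 73, beside 0.149% and 0.586%. After the shift the counts were 8 lower and 0 higher, then 4 lower and 2 higher, so the direction of replicate 2 turned. NCL, nucleolin, was at 0.32 (FDR = 3.98e-25) in replicate 2 and at 0.01 in replicate 1, and PTMA, prothymosin alpha, at 0.27 and -0.04, in the authors' deposited tables. NPM1, nucleophosmin, was at -1.20 (FDR = 1e-12) in the authors' deposited table of replicate 1, with no matched window in replicate 2. TPT1 was called lower in both tables, in windows that did not match, at -0.63 and -0.45 in replicate 1 and -0.57 in replicate 2 of the authors' deposited tables.

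The m6A machinery had few called windows. Its shares of higher calls lay above those of all windows, but among enriched windows that of writers in replicate 1 did not. Readers and erasers had 4 higher (3.81%) and 1 lower (0.952%) of 105 windows in replicate 1. In replicate 2 they had 4 higher (4.4%) and 1 lower (1.1%) of 91. Over all windows 0.875% and 0.586% were called higher in replicates 1 and 2, and 0.965% and 0.149% lower. After the shift readers and erasers had 2 higher and 3 lower in replicate 1 and 1 of each in replicate 2. Writers had 1 higher (1.3%) and 2 lower (2.6%) of 77 windows in replicate 1, then 2 higher (3.08%) and 0 lower of 65. Among enriched windows, 4 of 23 and 4 of 25 were higher for readers and erasers, and 1 of 23 and 2 of 19 for writers. The shares over all enriched windows were 7.38% and 4.54%. Among 15 readers and erasers, ALKBH5, a demethylase, was called higher in both of the authors' deposited tables at 0.39 and 0.49, in the window whose first bases are shown above. RBM15B, which guides the METTL3 complex, was at 0.40 and 0.30 in the authors' deposited tables. ZC3H13, of the same complex, was called lower in replicate 1 in 1 window (-0.53) and higher in replicate 2 in another (0.41) in the authors' deposited tables. METTL5, the writer of 18S ribosomal RNA m6A, was at -1.17 in the authors' deposited table of replicate 1. In the S-adenosylmethionine and polyamine list, OAZ1, which controls polyamine synthesis, was called higher in both of the authors' deposited tables at 0.31 and 0.23. MTHFD2 and SRM were lower in replicate 1 alone, at -2.0 and -1.01 in the authors' deposited table.

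A few genes had several windows called. In replicate 1 of the authors' deposited tables RBBP6 was lower in 5 of 14 windows (-0.71 to -1.94) and GOLGA4 in 4 of 13 (-1.35 to -2.51). FOXP4, a forkhead factor, was higher in 6 of 9 windows in replicate 1 and in 4 of 9 in replicate 2, with values from 0.27 to 0.44 and from 0.12 to 0.21 in the authors' deposited tables. ADGRA2, an adhesion receptor, was higher in 5 of 7 and 3 of 11. CTSD, the lysosomal protease cathepsin D, was higher in 4 of 4 windows in replicate 1 of the authors' deposited tables (0.20 to 0.66) and was called in both directions in replicate 2, at 0.17 and -0.08. Among the largest enriched changes of replicate 1 were RBMX at -2.36 (FDR = 1e-27), CSNK1A1 at -2.24 and SIK2 at 1.85 in the authors' deposited table. SIK2 was at -0.25, not called, in the authors' deposited table of replicate 2.

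The 5 largest called changes in each direction of replicate 1 lay in windows that were not enriched. The lower ones, besides ATRX, were on C9orf85 at -4.58, PAICS, an enzyme of purine synthesis, at -3.63, ETAA1, an activator of the ATR kinase, at -3.0, and ZNF84 at -2.79 in the authors' deposited table. The higher ones were on STARD9 at 4.7, MAP3K14, the NF-kappa-B-inducing kinase, at 3.3, SLC35C1, a GDP-fucose transporter, at 3.12, the noncoding HAR1A at 2.95 and RPS10-NUDT3 at 2.44 in the authors' deposited table. Where a matched window existed in replicate 2 of the authors' deposited tables it was not called: ETAA1 was at -0.58, STARD9 at -0.30, MAP3K14 at 0.54 and HAR1A at -1.04. In replicate 2, beside RPS23 and RPL15, the lowest were RPL7L1 at -2.22, PDE7A, a phosphodiesterase, at -2.21 and FAM166A at -2.2, and the highest TMEM183B at 3.14, GLTSCR1 at 2.17, DNAH11 at 1.95, TMEM189 at 1.94 and ANKLE2 at 1.42 in the authors' deposited table.

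Long windows were called higher more often. Among enriched windows over 150 and up to 300 bases, 3.37% were called higher in replicate 1 and 2.31% in replicate 2. Among those over 1200 bases the shares were 41.8% (92 of 220) and 21.8% (67 of 307), with exact binomial 95% intervals of 35.2% to 48.6% and 17.3% to 26.9%. These intervals cover the counting of windows only, and windows are not replicates. The lower share did not follow length in this way: it was 3.59% and 0.832% in that class and 2.27% and 0% (0 of 307) over 1200. The median log2 fold change of the enriched windows in the authors' deposited tables was 0.11 and 0.10 in that class, and 0.30 and 0.20 over 1200. Reads per window were not used here, and their part in these shares was not tested.

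**Figure D4:**
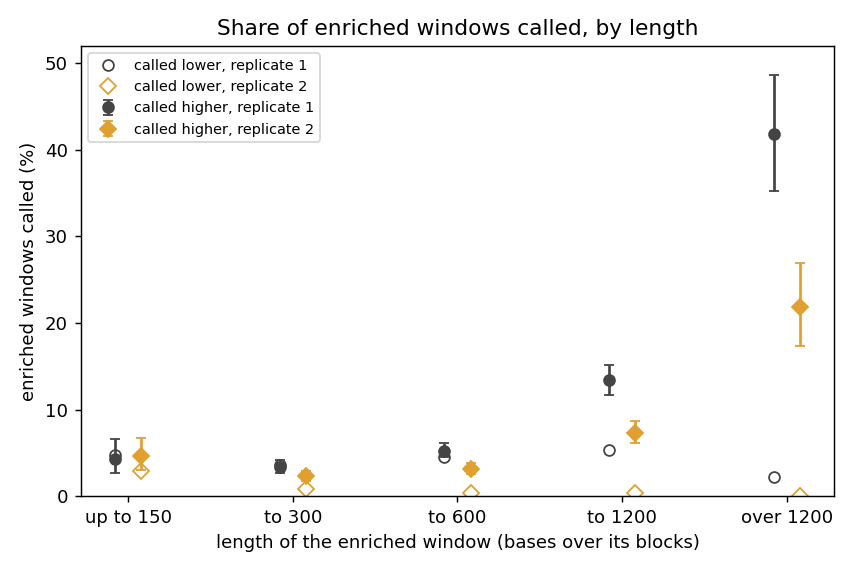
Percentage of enriched windows called (y axis) by window length in bases (x axis). Filled symbols are windows called higher with exact binomial 95% intervals, open symbols windows called lower, circles replicate 1 and diamonds replicate 2. The filled symbols reach 41.8% and 21.8% in windows over 1200 bases, and the open ones stay under 6% in every class.

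The median also varied by chromosome. In the authors' deposited table of replicate 1 the median of enriched windows ran from -0.12 on chromosome 13 to 0.28 on chromosome 22, and in replicate 2 from 0.04 on chromosome 13 to 0.18 on chromosome 19. Chromosome 19 held 27 of the 112 windows called higher in both tables (24.1%), beside 9.77% and 10.8% of the uncalled enriched windows. On chromosome 13, 20 of 121 enriched windows (16.5%) were called lower in replicate 1. What lies behind these differences was not tested.

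**Figure D5:**
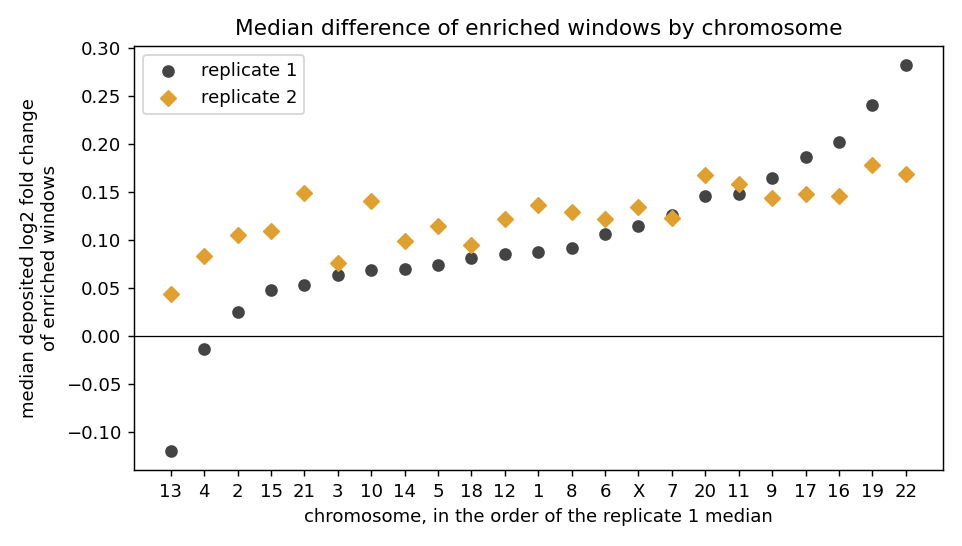
Median deposited log2 fold change of enriched windows (y axis) for each chromosome (x axis, ordered by replicate 1), with dark circles for replicate 1 and orange diamonds for replicate 2. Replicate 1 runs from -0.12 on chromosome 13 to 0.28 on chromosome 22, and replicate 2 has a narrower range from 0.04 to 0.18.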

How the data were processed

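Input and m6A IP libraries were made from polyadenylated RNA. Per the submitters' processing notes, reads were aligned with STAR to GRCh38, with no version stated. Not given in the sources used here are the peak caller, gene annotation and strand setting. Each table is a comparison by the authors. Per the file headers these hold the fold enrichment of IP over input, the log2 fold change of the difference, and the log10 of the p-values and FDRs, which the authors deposited. Values per library were not used, so depth is unknown and no test over libraries was possible. The deposited p-values of the difference were taken as one-sided, which the sources used here do not state. Their largest value was 0.833 in each table. The two-sided and shifted counts rest on this assumption, which was not tested.

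Libraries were grouped by guide and by input or IP from the labels. Windows on the same strand and gene with an overlap, over blocks, of at least 0.5 of both were matched 1 to 1. Coordinates, deposited from 0, are given from 1. The 57 gene lists, and the windows described, were chosen with earlier results of these data known, so lists are described by counts and medians beside all windows. Those not described appear only in counts of lists, and some members of these lists are not reported here by name.

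The rule for names took METTL16 and MAT2A, the lower windows called in both tables, higher ones of ranks 1 to 40, list members called in both tables and up to 4 per direction and table among called enriched windows, genes with the most called windows, the 5 largest changes per direction and table, and windows called in opposite directions. Of the list members and genes with the most called windows, some are described. Examples outside this rule, the windows kept after the shift, the length classes and the chromosomes were chosen after their values were seen. RefSeq matched 119 of 119 genes with a window called in both tables.

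Alternatives were an FDR of 0.01, enriched windows alone, a two-sided p, a log2 fold change of 0.5 or more in size, centring, overlaps of 0.2 and 0.8, near copies counted once and either table alone. Added after seeing the data were the deposited p with Benjamini-Hochberg adjustment, and a shift by the median of enriched windows. Its two-sided p came from a normal approximation with a standard error from the deposited p. Matching, adjustment and the shift were tested on made-up windows. Python 3.11.15, pandas 2.3.3, numpy 2.4.6, scipy 1.17.1 and matplotlib 3.10.9 were used.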

Additional observations from a re-analysis of the deposited data

How the results depend on the processing

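No paired analysis was possible because the deposited tables hold no value per library. With an FDR of 0.01, replicate 1 had 409 lower and 327 higher windows, replicate 2 had 58 and 246, and 60 were higher in both. Enriched windows alone gave 340 lower in replicate 1 and 58 in replicate 2. A two-sided p gave 433 higher in replicate 1. A log2 fold change of 0.5 or more in size gave 372 and 126 higher in replicates 1 and 2, and 11 in both. An overlap of 0.8 gave 2 lower and 67 higher in both, and either table alone gave 104 to 731 lower and 410 to 663 higher. The shift by the median of enriched windows, chosen after seeing the data, gave 153 and 61 higher in replicates 1 and 2, with 21 lower and 12 higher in both. The stricter thresholds and the enriched windows alone call fewer windows by construction, and the shift, which lowers every value, favours lower calls. The cause of the other differences was not tested. The other counts of windows moved by at most 1.5 times. Of 165 counts over gene lists, 86 stayed within 1.5 times at an FDR of 0.01 and 125 among enriched windows alone. Of the 13 lower windows, those of B2M, PABPC1 and SRSF11 fall under the fold threshold, and those of GGCX, PABPC1, PJA2 and UPF3B miss an FDR of 0.01. Unknown depth limits every value.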

Other observations

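These values were chosen after they were seen. On chromosome 6 between 41 and 45 Mb, 9 of 132 matched windows (6.82%) were called higher in both of the authors' deposited tables and 0 lower, beside 0.529% of all matched windows. They lay on 6 genes: BYSL, a ribosome assembly factor, CCND3, cyclin D3, CNPY3, a chaperone of Toll-like receptors, FOXP4, HSP90AB1, a cytosolic chaperone, and VEGFA. BYSL was at 0.21 and 0.30, CNPY3 at 0.20 and 0.31 and HSP90AB1 at 0.23 and 0.27 in the authors' deposited tables. Windows of 1 gene are not independent.

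Antigen presentation and granule genes were split. HLA-C was called higher in both of the authors' deposited tables, at 0.27 and 0.16, while B2M, its partner chain, was called lower in both. CTSG, cathepsin G, was called in replicate 2 at 0.38 in 1 window and at -0.23 in another of the authors' deposited table. The azurophil granule and lysosomal list had 2 lower (2.15%) and 7 higher (7.53%) of 93 windows in replicate 1. In replicate 2 it had 2 lower (1.9%) and 4 higher (3.81%) of 105. After the shift it had 2 lower and 4 higher, then 3 lower and 1 higher, so replicate 2 turned. The p53 list had 2 lower and 1 higher of 169 windows in replicate 1 and 0 calls in 137 in replicate 2. The BCL2 family and apoptosis list had 1 higher and 0 lower of 179, then 1 higher and 0 lower of 157. Over all windows 0.965% were called lower and 0.875% higher in replicate 1, and 0.149% and 0.586% in replicate 2. At those shares few calls would fall on lists of this size. Zinc finger genes named ZNF, the largest coding list, had 15 lower and 11 higher of 2508 windows in replicate 1 (0.598% and 0.439%). In replicate 2 they had 3 and 2 of 2232 (0.134% and 0.0896%), and each share lay under that of all windows. Few of these windows were enriched, 180 in replicate 1 and 196 in replicate 2. Among those, 8 were lower and 11 higher in replicate 1, beside 4.38% and 7.38% of all enriched windows. In replicate 2, 3 were lower and 2 higher, beside 0.676% and 4.54%.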
